A study of Ovis aries with 15 samples.

Results

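The probes described here are 293 sequences on a sheep gene expression array that carry no gene name and that gave more signal in the kidney cortex of fetal sheep after hypoxia than after normoxia, with and without ketamine. An unnamed probe is one whose gene name in the scanner files only repeats its sequence identifier. Members had to be well above background on at least 3 of the 15 arrays and to have a hypoxic mean at least 0.7 above the normoxic mean, on the log2 scale, both in vehicle and in ketamine fetuses. Of 15008 probes on the array without controls, 12927 were above background on 3 or more arrays, 11544 of them unnamed. The 293 members are 2.54% of these, against 102 of 1383 named probes (7.38%) and 395 of all 12927 (3.06%) that met the same 2 differences. No probe had to be dropped for a ribosomal or respiratory chain description. The members were chosen by these differences, so the hypoxic against normoxic values below are a description and carry no test.

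The kidneys came from 15 sheep fetuses carrying long-term catheters, at about 125 d of gestation, with 1 array for each. The mothers were ventilated so that the fetus passed through 30 min of hypoxia or of normoxia, and ketamine (3 mg/kg), an anaesthetic acting as a blocker of NMDA receptors, or saline vehicle was given to the fetus, the drug 10 min beforehand. Cortex was collected 24 h after its onset. The normoxic fetuses were 3 given vehicle and 4 given ketamine, and of the hypoxic fetuses 4 received each; every group shares the surgery and the maternal ventilation. The arrays' 75th percentiles of signal ran from 1058 to 1425, and between 75.6% and 85.2% of probes were well above background. The kidney cortex markers AQP1, AQP2, SLC34A1 and WT1 were well above background on every array. A further 9 listed markers, among them UMOD and NPHS1, were not found by name. Levels are log2 signal relative to the array's own 75th percentile, so 0 is the brightness of a probe at that percentile. In bulk tissue, fewer cells of a type and less RNA per cell cannot be told apart.

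By the array's own descriptions the members are mostly anonymous. An expressed sequence tag (EST) is a single read of a cDNA clone, and 261 members are ESTs with no product named, while 7 are listed as unknown and 25 have a product. Of these 25, 23 are proteins of the immune system: 12 major histocompatibility complex (MHC) class I, 2 MHC class II and 9 immunoglobulin chains. The other two are the fetal beta chain of haemoglobin and a bovine protein known only as MGC157082. Through a shared accession or a run of at least 24 shared bases, 4 further members were tied to MHC class I probes, 3 to immunoglobulin probes and 1 to interferon-induced protein 1-8U. These families were put together after the descriptions had been read. MHC class I molecules carry peptides from inside the cell to its surface for cytotoxic T cells, and interferons raise their expression in most cell types, the kidney included. MHC class II molecules present peptides to helper T cells, mainly on macrophages, dendritic cells and B cells. Immunoglobulins are the antibodies of B cells and plasma cells, and their heavy mu chain is that of IgM, the first class a B cell makes.

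The 60-base probes show how far members share sequence. The first pair is described as MHC class I genes C7 (A_70_P057141) and H10 (A_70_P016301), and the capitals mark a run of 53 bases that they share. At that offset they are identical at 57 of 60 bases.
A_70_P057141: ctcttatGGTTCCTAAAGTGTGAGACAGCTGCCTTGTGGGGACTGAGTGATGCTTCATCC
A_70_P016301: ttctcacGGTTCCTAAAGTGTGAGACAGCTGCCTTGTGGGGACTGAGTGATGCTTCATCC

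The probes for allele ShB (A_70_P006906) and gene G6 (A_70_P016746) share the 30 bases in capitals, and over an overlap of 57 bases they are identical at 53.
A_70_P006906: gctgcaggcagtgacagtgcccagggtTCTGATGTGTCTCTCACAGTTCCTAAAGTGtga
A_70_P016746: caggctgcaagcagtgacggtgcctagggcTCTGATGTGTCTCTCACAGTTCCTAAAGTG

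A member listed as unknown (A_70_P026136) shares the 24 bases in capitals with the variable region of an immunoglobulin light chain (A_70_P026396), and is one of the 3 that this rule placed among the immunoglobulins.
A_70_P026396: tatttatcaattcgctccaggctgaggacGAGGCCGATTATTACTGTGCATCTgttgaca
A_70_P026136: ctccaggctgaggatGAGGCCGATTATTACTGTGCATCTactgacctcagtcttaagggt

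Most members with the largest differences have no relative on the array. Shown next are 4 of them, from ESTs EE866720, CN823667, DY496264 and EE835047, together with EE806638, which had the smallest p in the ketamine comparison below, and the secreted immunoglobulin mu chain (A_70_P002936). Capitals mark AATAAA, the signal that precedes the poly(A) tail of many mRNAs.
A_70_P019681: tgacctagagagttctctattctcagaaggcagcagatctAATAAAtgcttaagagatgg
A_70_P016701: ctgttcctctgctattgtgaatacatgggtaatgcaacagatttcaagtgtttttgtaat
A_70_P061331: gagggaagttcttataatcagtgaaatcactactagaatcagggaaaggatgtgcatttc
A_70_P020946: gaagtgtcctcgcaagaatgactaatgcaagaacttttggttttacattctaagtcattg
A_70_P048566: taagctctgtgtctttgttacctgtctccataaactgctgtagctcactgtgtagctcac
A_70_P002936: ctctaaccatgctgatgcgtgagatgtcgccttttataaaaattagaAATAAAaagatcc

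The letters AATAAA were found in 27 of the 293 members as printed (9.22%) and in 11 on the opposite strand (3.75%). Over the 11544 unnamed tested probes the shares were 5.65% and 3.80%. The median GC content of the members was 45.0%, against 43.3% over the same probes. The chromosome position of all 293 members is given as unmapped in the files, and none matched the sheep RefSeq gene table by accession or symbol. In all, 23 members fell into 5 groups that share an accession or a run of bases, the largest with 13 probes, 12 of them of the MHC class I family, so the 293 probes read at most 275 separate targets.

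Across the members, the hypoxic mean exceeded the normoxic mean by a median of 1.46 in vehicle fetuses and 1.18 in ketamine fetuses. Over all 12927 tested probes the medians were -0.05 and -0.03. With normexp background correction the members' medians were 0.79 and 0.86, the vehicle value then being the lower. The difference was larger with vehicle for 204 members and larger with ketamine for 89. It was at least 1 in both arms for 157 members and at least 2 for 19. The members were dim: their mean level had a median of -3.58, against -1.69 over the unnamed tested probes. On all 15 arrays 195 were well above background, and 35 were so on only 3 to 5 arrays. For 42 members no normoxic vehicle array was above background, and for 38 no normoxic ketamine array. For these a fold change is a lower bound, and where the bound falls under 1 no fold change can be given. No member was saturated.

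**Figure D1:**
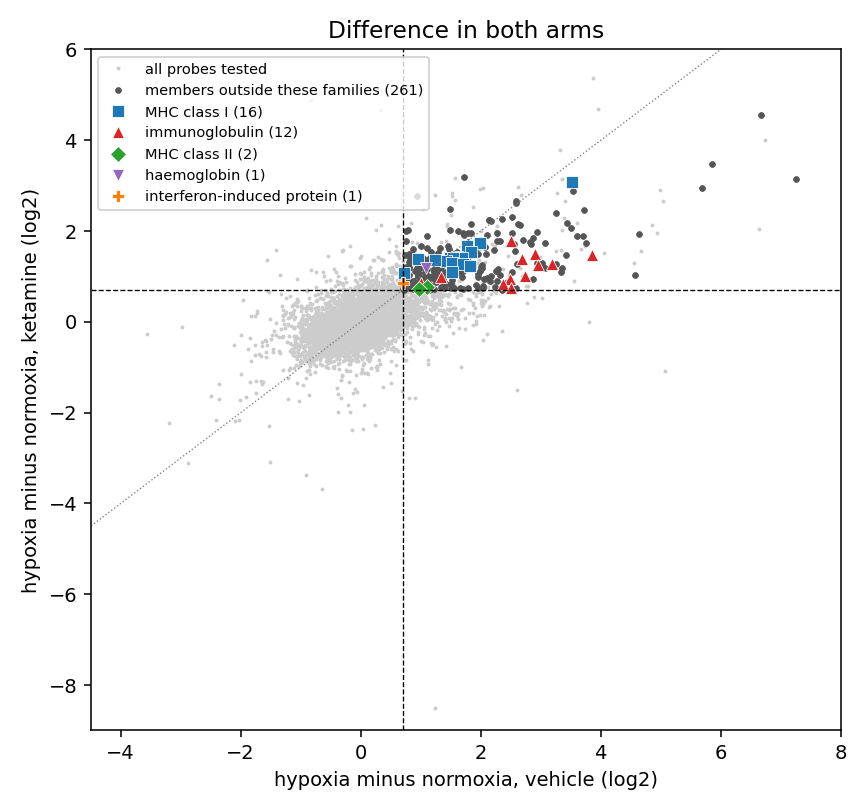
Hypoxic minus normoxic mean (log2) in vehicle fetuses (horizontal axis) and ketamine fetuses (vertical axis) for every probe tested (grey) and for the members, coloured by family; the dashed lines stand at 0.7, the value that chose the members, and the dotted line marks equal differences. Of the 293 members 204 lie below the dotted line; the immunoglobulin probes (12, triangles) all lie below it and the MHC class I probes (16, squares) lie near it.

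The threshold cut through a dense field of values. Just inside it were A_70_P057961, A_70_P024446 and A_70_P064681, whose smaller difference was 0.70 each. Just outside were A_70_P064331, A_70_P005976 and A_70_P024961, also at 0.70 when rounded. With a threshold of 0.5 there would be 461 members, and with 1 there would be 157.

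The hypoxic fetuses were far from alike. Relative to the normoxic mean of their own arm, the median of the members was 0.30 in hypoxia vehicle replicate 1, 1.51 in replicate 2, 1.93 in replicate 3 and 2.09 in replicate 4. In the hypoxic ketamine group it was 0.86 in replicate 1, 2.52 in replicate 2, 0.59 in replicate 3 and 0.86 in replicate 4. The normoxic arrays lay between -0.15 and 0.20. Hypoxia ketamine replicate 2 was thus the highest of all 15 arrays, and it was the highest of its group for 248 members (84.6%). In the hypoxic vehicle group replicate 4 was highest for 127 members, replicate 3 for 101, replicate 2 for 42 and replicate 1 for 23. Replicate 1 was the lowest of that group for 178. The median SD of a member was 1.38 within the hypoxic vehicle group and 1.11 within the hypoxic ketamine group, against 0.34 and 0.42 in the normoxic vehicle and ketamine groups. Over all tested probes these were 0.29, 0.24, 0.18 and 0.21.

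**Figure D2:**
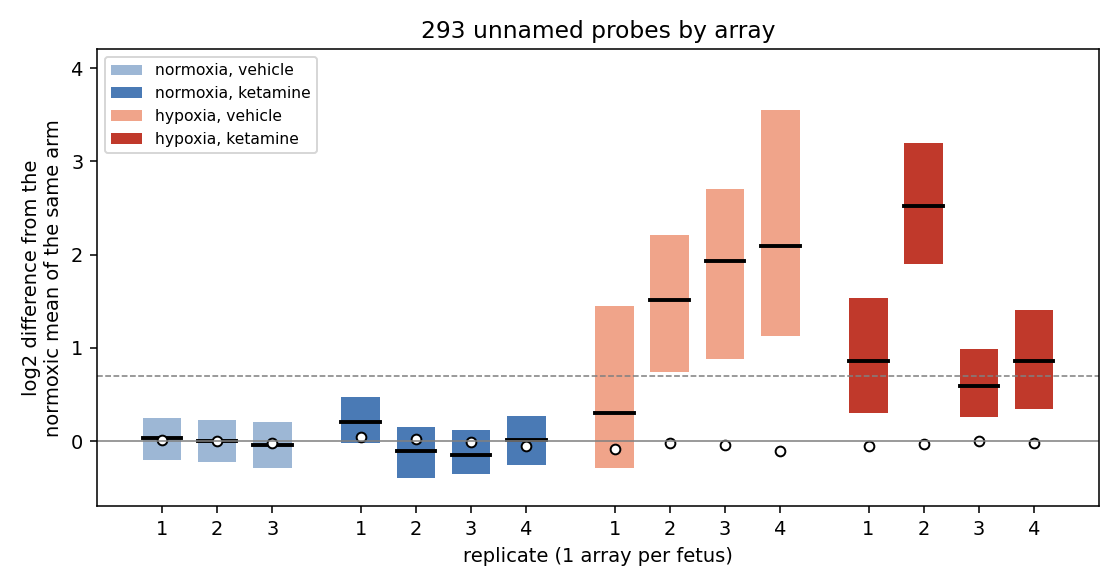
Log2 difference of the 293 members from the normoxic mean of the same arm on each of the 15 arrays; the boxes run from the lower to the upper quartile of the members, the black line is their median and the open circle is the median of all tested probes. Hypoxia ketamine replicate 2 has a median of 2.52 and hypoxia vehicle replicate 1 one of 0.30, while the medians of all tested probes stay near 0 on every array.

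Placental lactogen, a hormone of the placenta, was well above background on 3 arrays, 2 of them normoxic (ketamine replicates 1 and 2) and the other hypoxia ketamine replicate 2. Its part in the members' values was not tested. Without these arrays 179 members passed both thresholds and 283 were higher in both arms. Without hypoxia ketamine replicate 2 alone the members' median difference in ketamine fetuses was 0.75, and 162 members still passed both thresholds. Without the highest array of each hypoxic group 138 passed and 273 were higher in both arms, with medians of 1.30 and 0.75. The arrays lay on 2 slides. Within the first slide the median differences were 1.76 with vehicle and 1.62 with ketamine, and 257 members passed both thresholds. Within the second they were 1.18 and 0.80, and 132 passed. The second slide holds only 1 normoxic vehicle array.

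Separation of the groups was uncommon. In vehicle fetuses every hypoxic array lay above every normoxic array for 100 members, and in ketamine fetuses for 90. Over all tested probes this was the case for 5.04% and 2.63%. All 8 hypoxic arrays lay above all 7 normoxic arrays for 18 members, against 0.309% of the tested probes. These counts follow from the choice of the members and are read no further. Of the 18, 17 are ESTs without a product and the other is the MGC157082 probe (A_70_P006576). None belongs to the MHC or immunoglobulin families.

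The MHC class I probes formed the largest family. Of the 16 described MHC class I probes on the array all were tested, and 12 of the 14 unnamed ones were members. Left out were a probe for the related molecule MR1 (A_70_P028281), with differences of -0.12 and -0.02, and an isolate probe (A_70_P049101), with 0.65 and 0.72. With the 4 linked ESTs the 16 members had median differences of 1.58 in vehicle and 1.39 in ketamine fetuses.

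The gene C7 probe (A_70_P057141) is bright and shows the family's pattern. Its level was 2.96, 3.23 and 2.92 in the 3 normoxic vehicle fetuses and 3.35, 2.40, 2.59 and 3.18 in the normoxic ketamine fetuses. It was 3.06, 5.71, 5.36 and 5.10 in hypoxic vehicle replicates 1 to 4 and 2.50, 6.42, 4.58 and 4.75 in the hypoxic ketamine replicates. Replicate 1 of either hypoxic group lay among the normoxic values, and the other 6 hypoxic arrays lay above all of them. The means were 3.40-fold higher with vehicle and 3.20-fold with ketamine. The H10 probe (A_70_P016301), which shares 53 bases with it, differed by 3.55-fold and 2.89-fold. The ShB probe (A_70_P006906) ran from 2.95 to 3.68 in normoxic fetuses and stood at 2.48, 6.11, 5.44 and 5.13 in the hypoxic vehicle group, so its lowest value of all 15 arrays was in a hypoxic fetus. In the hypoxic ketamine group it was 3.70, 6.09, 4.01 and 4.76.

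The same order held for the family as a whole. The median of the 16 probes, relative to the normoxic mean, was -0.66 in hypoxia vehicle replicate 1 and 2.82, 2.21 and 1.96 in replicates 2 to 4. In the hypoxic ketamine fetuses it was 0.31, 3.09, 0.76 and 1.52. The EST EE747284 (A_70_P002731), tied to the family by a shared accession, had its widest differences, 11.5-fold with vehicle and 8.48-fold with ketamine. Its levels were -2.17, -0.50 and -2.57 in normoxic vehicle fetuses, where -0.50 stands apart, and -1.40, 3.79, 2.51 and 2.19 in hypoxic vehicle fetuses. The normoxic ketamine values of -1.72, 0.17, -2.67 and -2.66 overlap the hypoxic ketamine values of 1.63, 3.63, -1.53 and 1.72. Some probes were also low in replicate 1 of the normoxic groups. M34674 (A_70_P056847) was 2.16 in normoxia vehicle replicate 1 and 2.55 in normoxia ketamine replicate 1, against 4.45 to 4.89 in the other normoxic fetuses. It was 1.47 in hypoxia vehicle replicate 1 and 6.45 to 6.91 in the others of that group. M34673 (A_70_P056851), with differences of 1.99 and 1.74, was 1.68 and 2.13 in the same normoxic fetuses, against 3.14 to 4.31 in the others. In hypoxia vehicle replicate 1 it was 2.79, against 4.95 to 6.18 in the others of that group. MHC class I genes differ between animals and resemble each other, so a probe cannot be assigned to 1 gene copy. For M34676 (A_70_P001546) the spot of hypoxia vehicle replicate 2 was an outlier and was left out.

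Named genes of the same pathway were not used by the rule, so their hypoxic differences can be tested. They were picked once the members were known, and "rose" here means an unadjusted limma p of at most 0.05, the threshold the study states. In vehicle fetuses 5.71% of all tested probes rose and in ketamine fetuses 3.54%, while 10.5% and 5.12% fell. B2M, the light chain of MHC class I, rose by 1.04 ± 0.46 (log2, SE; adjusted p = 0.289 in limma) with vehicle and by 1.2 ± 0.43 (adjusted p = 0.445 in limma) with ketamine. A named MHC class I probe, OVAR (A_70_P016117), rose in both arms, by 1.52 ± 0.67 and 1.37 ± 0.62 (adjusted p = 0.286 and 0.562 in limma). It shares a run of 33 bases with the ShB member and is not an independent reading. The other OVAR probe (A_70_P001716) passed in neither arm, with differences of 1.53 ± 0.72 and 1.35 ± 0.66 (adjusted p = 0.311 and 0.603 in limma). PSMB8, a subunit of the immunoproteasome that cuts the peptides, rose with vehicle (1.82 ± 0.81, adjusted p = 0.290 in limma), and its difference with ketamine was 1.53 ± 0.75 (adjusted p = 0.601). IRF1, a transcription factor of the interferon response, rose by 3.35 ± 1.05 with vehicle (adjusted p = 0.175 in limma), against a difference of 2.03 ± 0.97 with ketamine (adjusted p = 0.588). PSME2, a part of the proteasome activator, did not pass in either arm, with differences of 0.65 and 0.68. Of these 4 named genes beside OVAR, 3 rose with vehicle and 1 with ketamine.

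Both MHC class II members read antigen presenting chains. The DR alpha probe (A_70_P026951) was 1.87, 2.07 and 1.90 in normoxic vehicle fetuses and 1.85, 4.15, 3.77 and 2.45 in hypoxic vehicle fetuses, where replicate 1 again stayed at the normoxic level. In ketamine fetuses it was 3.72, 2.56, 1.59 and 2.0 under normoxia, the highest being replicate 1, and 2.67, 4.10, 2.83 and 3.35 under hypoxia. The DQ probe M93431 (A_70_P026541) had differences of 0.97 and 0.73. The 8 other described class II probes tested had median differences of 0.60 with vehicle and 0.70 with ketamine, against -0.05 and -0.03 over all tested probes. They ran from -0.65 to 1.67 with vehicle and from -3.68 to 1.51 with ketamine. The 3 named ones among them passed in neither arm.

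The immunoglobulin members had wide differences carried by some fetuses. Of the 25 unnamed tested probes with an immunoglobulin description 9 were members; with the 3 linked probes there were 12. The median differences of these 12 were 2.59 with vehicle and 1.13 with ketamine. The unnamed probes with such a description that were left out ran from -0.08 to 2.90 with vehicle and from -0.31 to 0.65 with ketamine. The secreted mu chain probe (A_70_P002936) was -1.08, -1.13 and -0.70 in normoxic vehicle fetuses and -0.83, 2.67, 5.46 and 1.56 in hypoxic vehicle fetuses. In ketamine fetuses it was -0.96, -1.18, -0.88 and -1.56 under normoxia and -1.67, 1.45, -0.15 and 0.91 under hypoxia. Hypoxia vehicle replicate 3 stood above all others, and replicate 1 of both hypoxic groups did not leave the normoxic range on its upper side. The means differed by 9.09-fold and 2.43-fold.

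The variable region probes were dimmer. The heavy chain probe AF172671 (A_70_P026486) was above background on 0 of 3 normoxic vehicle and 3 of 4 hypoxic vehicle arrays and was at least 4.31-fold higher. Its hypoxic vehicle levels were -7.74, -4.49, -1.66 and -5.74, and its hypoxic ketamine levels -8.06, -5.62, -6.95 and -6.60. The light chain probe AF172697 (A_70_P026396), shown with its bases above, was above background on 3 hypoxic vehicle arrays, 1 hypoxic ketamine array and no normoxic array, and was at least 1.95-fold higher with vehicle. Its highest level was again that of hypoxia vehicle replicate 3, -2.84, against -6.17 or less elsewhere in that group. The IgA heavy chain probe (A_70_P041321) was -3.33 in that fetus and -7.22 to -5.83 in the other hypoxic vehicle fetuses. The median of the 12 probes was 0.00, 2.76, 5.68 and 1.96 in hypoxia vehicle replicates 1 to 4 and -0.14, 2.27, 0.62 and 1.58 in the ketamine replicates. Probes of the variable region share sequence and can bind RNA of more than 1 segment.

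**Figure D3:**
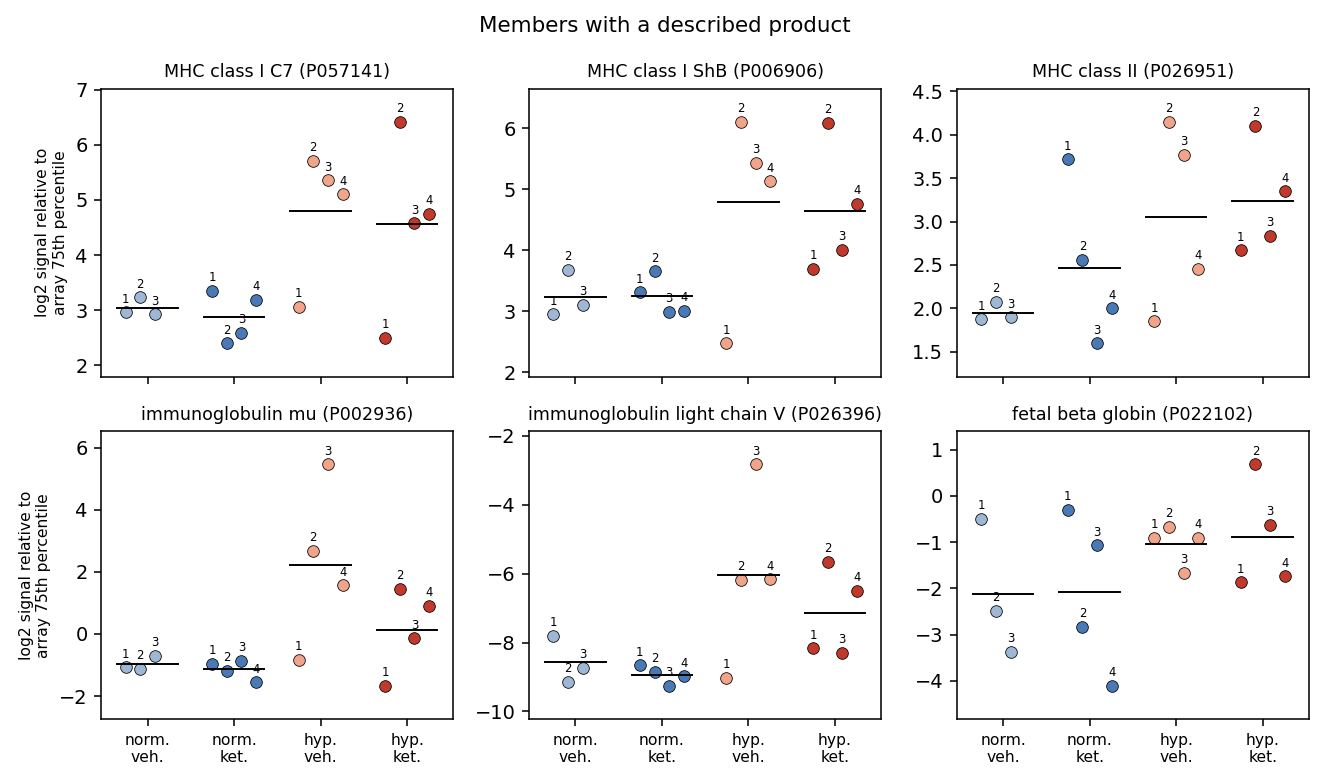
Log2 signal relative to the array's 75th percentile for 6 members with a described product; each point is 1 fetus, numbered by replicate, and the line is the group mean. In the MHC class I panels replicate 1 of the hypoxic vehicle group lies at or below the normoxic fetuses, and in the immunoglobulin panels replicate 3 of that group is the highest.

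Markers of leukocytes were measured on the same arrays. No marker of B cells could be found by name among 4 listed, so the immunoglobulin values could not be set beside one. Of 9 neutrophil markers 2 were tested, LTF and CATHL3; neither rose with vehicle and CATHL3 rose with ketamine. Their mean difference from the normoxic fetuses was -0.46, 2.98, 5.18 and 0.08 in hypoxia vehicle replicates 1 to 4 and 0.19, 4.42, 0.04 and 3.08 in the ketamine replicates, against -1.76 to 1.90 in normoxic fetuses. All 5 tested monocyte and macrophage markers (CD14, FCGR1A, FCGR2B, FCER1G and CD86) rose with vehicle and 4 rose with ketamine. Their mean was 0.91, 1.61, 2.52 and 1.5 in the hypoxic vehicle fetuses and 1.18, 2.44, 0.46 and 0.77 in the hypoxic ketamine fetuses, against -0.18 to 0.37 in normoxic fetuses. The 2 T cell markers, CD3D and CD3E, passed in neither arm, and their mean reached 2.32 in hypoxia vehicle replicate 3. In hypoxia vehicle replicate 4, where the members' median was the highest of its group, the neutrophil and T cell means were 0.08 and 0.24. The monocyte and macrophage mean in that fetus was 1.5. The part of leukocyte number in the members' values was not tested.

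The fetal haemoglobin beta probe (A_70_P022102) had differences of 1.09 and 1.19, but its normoxic values were spread out. They were -0.50, -2.49 and -3.37 with vehicle and -0.31, -2.83, -1.07 and -4.11 with ketamine, so the hypoxic values of -1.66 to -0.67 with vehicle fall inside the normoxic range. HBB, the adult beta chain, had differences of 0.37 and 0.34 and passed in neither arm. The EST EE802523 (A_70_P007346), tied to the interferon-induced protein 1-8U, had differences of 0.71 and 0.86. It was highest in hypoxia vehicle replicate 4 at 5.75, against 3.26 to 3.89 in all normoxic fetuses.

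The largest differences belonged to ESTs without a product. EE866720 (A_70_P019681), first by its smaller difference, was -7.76, -7.93 and -6.83 in normoxic vehicle fetuses and -7.17, -6.64, -8.25 and -6.51 in normoxic ketamine fetuses. After hypoxia it was -2.88, -1.54, 2.60 and -1.54 with vehicle and -5.39, 3.80, -5.32 and -3.43 with ketamine. All hypoxic values lay above all normoxic values, and the span within the hypoxic ketamine group was wider than the gap between groups. With no normoxic vehicle array above background, the vehicle difference was at least 72.2-fold, and the ketamine difference was 23.6-fold.

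DY496264 (A_70_P061331), from a fracture callus library, had the largest vehicle difference of the members, 7.26 on the log2 scale and at least 128-fold. Its hypoxic vehicle levels were 2.84, -1.41, -2.38 and 1.55, and its hypoxic ketamine levels -1.28, -3.05, -5.27 and -5.26, while all normoxic levels lay between -8.06 and -6.28. Here hypoxia vehicle replicate 1, the lowest for most members, was the highest. CN823667 (A_70_P016701), from a spleen and brain library, was 3.94, 1.43, 0.46 and 4.18 in hypoxic vehicle fetuses and -1.78, 2.80, -2.26 and -1.26 in hypoxic ketamine fetuses, against -4.71 to -2.93 in normoxic fetuses. The means differed by 57.8-fold and 11.1-fold. EE835047 (A_70_P020946) was likewise highest in replicates 4 and 1 of the hypoxic vehicle group, with 5.42, 2.93, 1.53 and 6.78 after hypoxia with vehicle and 2.61, 4.12, -0.86 and 0.12 with ketamine. Its normoxic values reached -0.54 and overlap hypoxia ketamine replicate 3.

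Other ESTs among the 12 with the largest smaller difference peaked on 1 array of each hypoxic group. EE833190 (A_70_P058116) was 5.44 in hypoxia vehicle replicate 4 and 4.42 in hypoxia ketamine replicate 2, and between -0.85 and 0.69 on the other hypoxic arrays, all above the normoxic range of -2.10 to -1.0. FE032842 (A_70_P006791), from a Peyer's patch, was 6.71 and 3.98 on these arrays and between -0.88 and 1.36 on the other hypoxic arrays, with normoxic values up to -0.86. CO202791 (A_70_P062926) was bright throughout, at up to 2.02 in normoxic fetuses, and reached 6.45 and 6.12 on the same arrays. DY486945 (A_70_P033336), GO740789 (A_70_P009666) and EE755865 (A_70_P031786) had differences between 2.31 and 3.72 with overlapping groups in at least 1 arm.

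A few ESTs were even within the hypoxic vehicle group, though not within the hypoxic ketamine group. EE810251 (A_70_P064106) was -3.46, -3.07, -2.66 and -2.77 in hypoxic vehicle fetuses, against -7.23 to -6.07 in normoxic fetuses and -4.37, -2.42, -5.37 and -5.08 in hypoxic ketamine fetuses. EE755940 (A_70_P009271), chosen after its values were seen, was -0.33, -0.42, -0.15 and 0.26 in hypoxic vehicle fetuses, a SD of 0.30 around a difference of 3.44. In hypoxic ketamine fetuses it was -1.40, 0.52, -3.31 and -2.45, and in normoxic fetuses -4.15 to -3.50. The pair EE853305 and EE841796 (A_70_P005371 and A_70_P058376) share an accession but no long run of bases, and had differences of 0.99 and 1.22 with vehicle and 0.92 and 1.12 with ketamine.

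The members were next split by their level in hypoxia vehicle replicate 1, an array that the rule had used. This level was at least 0.7 above the normoxic mean for 123 members and less for 170. The cut itself sets the sets apart in that replicate. Of the 16 MHC class I members 0 were among the 123, and of the 12 immunoglobulin members 2 were. In the 123, the medians were 1.76, 1.33, 1.72 and 2.70 in hypoxia vehicle replicates 1 to 4. In the 170 they were -0.17, 1.55, 2.01 and 1.86. Among the named lists, the 10 tested cytokine and chemokine genes had mean differences of 3.79, 2.44, 1.64 and 4.99 on these arrays, and 6 immediate early genes (FOS, JUN, JUNB, EGR1, MYC and ZFP36, transcription and mRNA decay factors switched on within minutes of a stimulus) had 2.94, 0.43, 0.43 and 2.73. The 5 tested hypoxia-inducible factor targets had 1.40, 0.53, 1.23 and 0.59 in hypoxia vehicle replicates 1 to 4. The 4 tested endothelial genes had 1.34, 0.96, 0.67 and 1.13. By contrast, the neutrophil, T cell, and monocyte and macrophage means given above were lowest in replicate 1 of that group. In the hypoxic ketamine fetuses the cytokine list was at 0.82, 2.85, 0.83 and 0.87. With vehicle 8 of the 10 cytokine genes and 4 of the 6 immediate early genes rose; with ketamine 2 and 0 did.

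**Figure D4:**
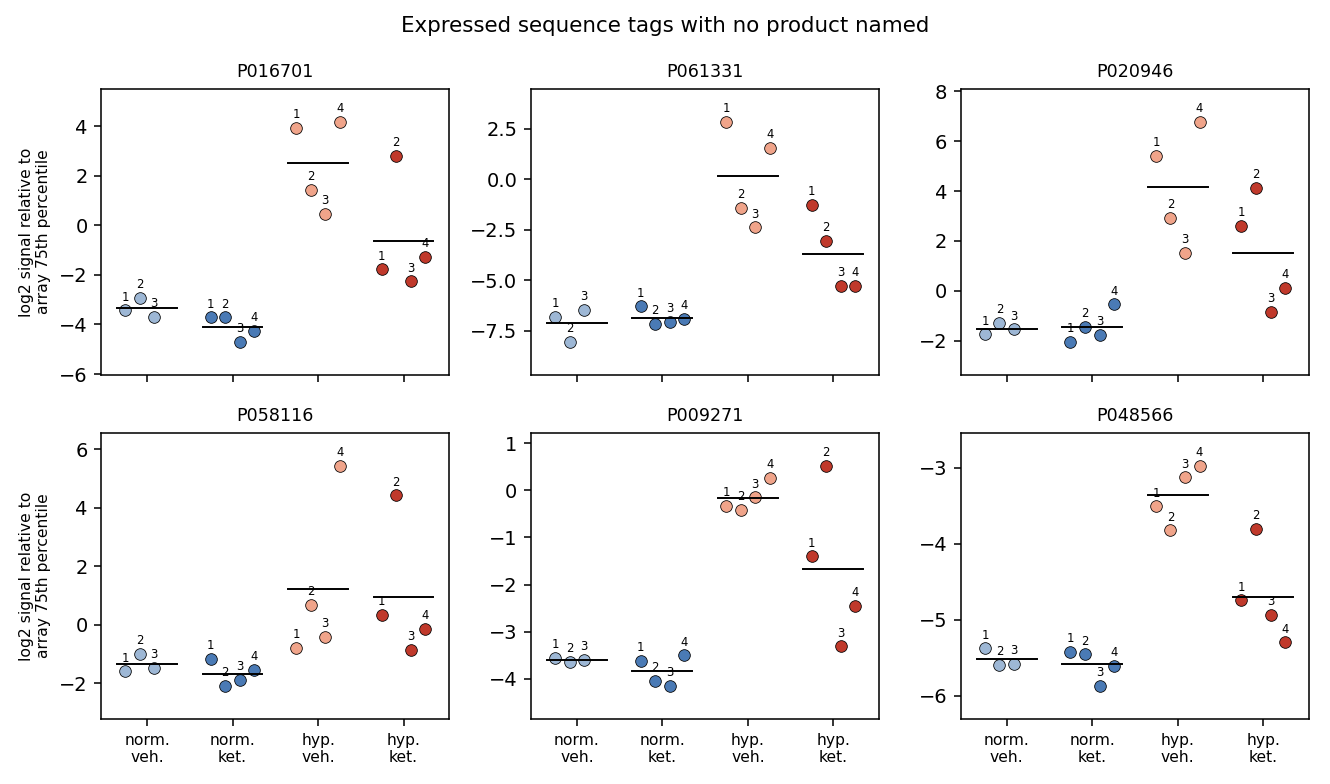
Log2 signal relative to the array's 75th percentile for 6 ESTs with no product named; each point is 1 fetus, numbered by replicate, and the line is the group mean. P016701, P061331 and P020946 are high in replicates 1 and 4 of the hypoxic vehicle group, P058116 only in replicate 4 and in hypoxic ketamine replicate 2, and P009271 and P048566 are even across the hypoxic vehicle group.

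The second question was whether the members differed between ketamine and vehicle. This comparison did not choose the members, but it shares the hypoxic arrays with the differences that did. In hypoxic fetuses 242 members were lower with ketamine (82.6%, against 46.8% of all tested probes), with a median difference of -0.37 against 0.02. With normexp background correction 164 were lower and the median was -0.08 against 0.12, and with 1 array left out it ran from -0.87 (without hypoxia ketamine replicate 2) to -0.16 (without replicate 3). At an unadjusted limma p of at most 0.05, 23 fell (7.85%) and 0 rose, against 3.54% and 2.44% of all tested probes. None passed after adjustment, and the smallest adjusted p in limma was 0.800. Without hypoxia ketamine replicate 2, 72 fell (24.6%, against 6.33% of all tested probes). Without replicates 3 or 4 of that group 9 and 8 fell (3.07% and 2.73%), close to the 2.87% and 2.18% of all tested probes. Replicate 4 is the array on which only 75.6% of probes passed the background call, and what this did to the count was not tested. Without hypoxia vehicle replicate 2, 40 fell (13.7%, against 6.25%), and without replicate 4, 12 fell (4.10%, against 2.96%) and 1 rose. The SE, from 1 variance shared by 4 groups, can be too small here, since the hypoxic groups varied more; fitted to the hypoxic groups alone, 7 fell and 0 rose, against 1.97% and 1.37% of the tested probes.

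The 23 were ESTs but for 1 unknown probe, and none belonged to a named family. The 4 largest decreases were those of DY496264 (A_70_P061331, -3.86 ± 1.08), EE828791 (A_70_P029911, -3.17 ± 1.39), CN823667 (A_70_P016701, -3.13 ± 1.01) and EE830480 (A_70_P008776, -3.01 ± 1.1), all with adjusted p in limma of 0.800 or 0.813. EE828791 was -4.85, -2.26, -2.05 and -2.05 with vehicle and -8.52, -1.43, -8.86 and -5.09 with ketamine, so replicate 2 of the ketamine group was the highest of all. It was well above background on only 2 of the 4 hypoxic ketamine arrays, so its decrease is partly one to background values. That decrease was -0.53 with normexp background correction and -1.18 in the deposited value table, and passed in neither. EE830480 was -0.99, -4.85, -3.82 and 0.14 with vehicle and -4.21, -3.67, -6.30 and -7.36 with ketamine. EE806638 (A_70_P048566), chosen for its smallest p, was 2.52-fold lower (-1.34 ± 0.27, adjusted p = 0.800 in limma). It was -3.51, -3.82, -3.13 and -2.97 with vehicle and -4.75, -3.80, -4.93 and -5.29 with ketamine, where only replicate 2 reached the vehicle range. No decrease came with separate groups: for 0 of the 293 members did all hypoxic vehicle arrays lie above all hypoxic ketamine arrays, against 0.967% of the tested probes. Leaving out hypoxia ketamine replicate 2 they did so for 21 members (3.98% of the tested probes), 8 of them among the 23.

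Of the 23, 22 were among the 123 members that were raised in hypoxia vehicle replicate 1, and 1 was among the 170 that were not. A low value in that fetus lowers the vehicle mean and widens its spread, so the 2 counts are not independent of the test. For MHC class I the ketamine difference in hypoxic fetuses ran from -0.48 to 0.31, with a median of -0.21, and 0 of 16 passed. For the C7 probe it was -0.25, with a 95% interval of -1.74 to 1.24, which covers a fall or a rise of more than 2-fold. All 12 immunoglobulin members were lower with ketamine, by 0.66 to 2.08 on the log2 scale, and 0 passed (smallest adjusted p = 0.813 in limma). For the mu chain the difference was -2.08 ± 1.0, with an interval of -4.23 to 0.07. A_70_P026396, A_70_P026136 and A_70_P026486 were each well above background on 3 hypoxic vehicle arrays but only 1 hypoxic ketamine array. Such probes met the background filter mainly through the vehicle group, so their lower ketamine values are partly built in. The 12 probes are not all separate readings, since some share an accession or a run of bases. Relative to the normoxic mean, their median was 5.68 in hypoxia vehicle replicate 3, against 2.76 or less in the other hypoxic vehicle fetuses.

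In normoxic fetuses 181 members were lower with ketamine (61.8%, against 53.4% of all tested probes), and the median difference was -0.10. At an unadjusted limma p of at most 0.05, 2 fell and 0 rose, against 1.76% and 0.936% of the tested probes, and none passed after adjustment. EE844179 (A_70_P022956) was -6.02, -6.34 and -5.52 with vehicle and -6.47, -8.82, -6.67 and -7.45 with ketamine (-1.39 ± 0.55, adjusted p = 1.0 in limma). Without normoxia ketamine replicate 2, the lowest, it no longer passed (-0.90). FE021090 (A_70_P003931) was also among the 23, but was not well above background on any normoxic array, so its normoxic difference is one between values at the background. Fitted to the normoxic groups alone, which vary less, 27 members fell and 2 rose, against 3.71% and 1.45% of the tested probes, and the only one past adjustment was again FE021090.

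**Figure D5:**
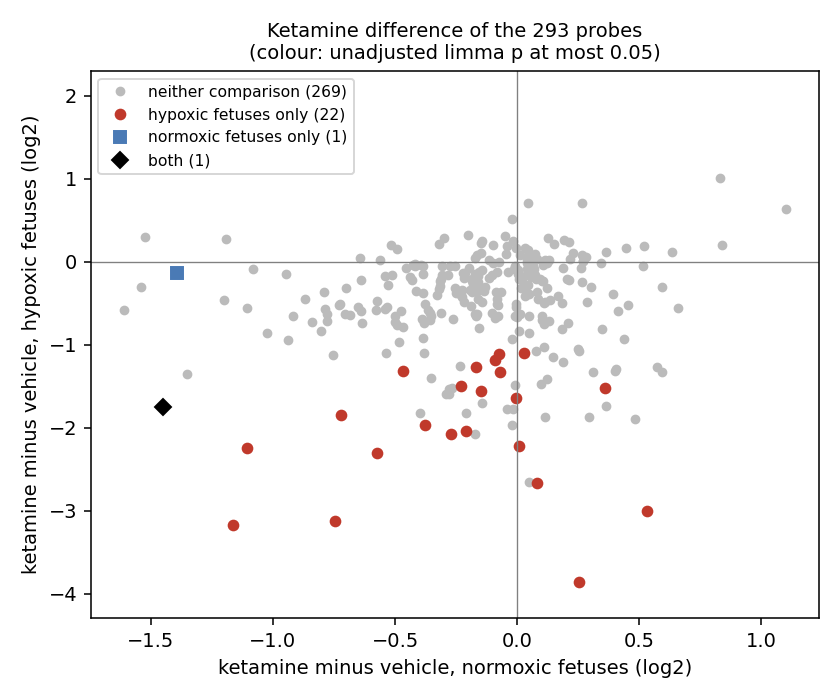
Ketamine minus vehicle (log2) in normoxic fetuses (horizontal axis) and hypoxic fetuses (vertical axis) for the 293 members; colours mark an unadjusted limma p of at most 0.05 in the hypoxic fetuses only (22), the normoxic only (1), both (1) or neither (269). The members passing in hypoxic fetuses all lie below 0 on the vertical axis, and none passed after adjustment over all tested probes.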

How the data were processed

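Total RNA was labelled with 1 dye and hybridised to an Agilent ovine array. Per the file headers, the deposited scanner intensity was background subtracted by Agilent Feature Extraction 10.1.1.1, on a linear scale. The value table the authors deposited holds log2 values of 11705 probes; 12 of its 15 columns resembled a different array of the same group most (r from 0.909 to 0.976), so it served only as an alternative. The submitters' processing notes name limma; the filter behind the table is not given in the sources used here.

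From the processed intensity, log2 signal minus the array's log2 75th percentile was computed, and spots of a probe not marked as outliers were averaged. Probes well above background on at least 3 arrays were kept. Linear models with 1 mean per group were fitted to all 15 arrays in limma 3.58.1 (R 4.3.3; 11 residual and 2.4 prior degrees of freedom), two-sided, with Benjamini-Hochberg adjustment over all 12927 probes, and the script was tested on simulated data. For a lower bound, each array of a group wholly near background was given at least the lowest signal called above background on it.

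Members and lists were chosen with earlier results of these data known. Named members are the 12 with the largest smaller difference, the 4 largest increases and decreases passing in each ketamine comparison, 3 per described class and those next to the threshold; others named were chosen after their values were seen. For list genes, names were updated through a sheep RefSeq table and a hand-written table of older symbols, and the brightest probe of a gene was used. Fibroblast, endothelial and hypoxia-inducible factor target lists were also counted: with vehicle 0 of 2, 1 of 4 and 4 of 5 genes rose, with ketamine 0 in each, and COL1A2, COL3A1 and KDR fell in both arms. In the antigen presentation and kidney cortex lists 1 gene each is not reported here. Same-numbered arrays were not taken as pairs. The number of arrays limits the precision, and p-values measure the spread between these fetuses.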

Additional observations from a re-analysis of the deposited data

Results flagged for a closer look

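Among groups of 4 arrays, 6 values of named members and 1 median lay apart from the other 3 by more than Dixon's 95% criterion, which chance alone exceeds in about 1 in 20 groups. There are 42 named members, each with more than 1 such group, so several such values can come from chance alone. The median of the members in hypoxia ketamine replicate 2 was 2.52, and the next highest of its group was 0.86. By the same criterion 32 of the 293 members (10.9%) stood out upward in 1 array of this group, against 3.04% of all tested probes; in the hypoxic vehicle group 9 of 292 did (3.08%, against 3.10%).

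In hypoxia vehicle replicate 1, A_70_P031786 was -3.73 (next -0.19), A_70_P029911 was -4.85 (next -2.26) and the MHC class I probe A_70_P056847 was 1.47 (next 6.45). The last was also low in normoxia ketamine replicate 1, at 2.55 (next 4.45). In normoxia ketamine replicate 2, A_70_P033336 was -3.03 (next -1.94) and A_70_P024446 was -7.80 (next -9.28).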

How the results depend on the processing

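The number of members, 293, was 280 with quantile scaling, 298 with median scaling and 304 from within-slide means, but 157 with normexp background correction, 195 when all 15 arrays had to be above background, 165 in the deposited value table, 461 and 157 with thresholds of 0.5 and 1, and 169 to 351 when 1 array was left out. Without the highest array of each hypoxic group, an alternative chosen after seeing the data, it was 161. The count of ketamine calls in hypoxic fetuses, 23, was 14 with normexp, 13 within slide 1, 7 when only these groups were fitted, 0 after adjustment and 8 to 72 with 1 array left out. It was 60 without the highest arrays (20.5%, against 5.36% of all tested probes) and 66 without the arrays with placental lactogen (22.5%, against 5.81%), both chosen after seeing the data. In normoxic fetuses the count of 2 was 0 with normexp, after adjustment or with all arrays above background, 1 in the deposited table, 5 within slide 1, 29 when only these groups were fitted, 0 to 4 with 1 array left out, 16 without the highest arrays and 1 without the lactogen arrays.

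With a replicate block the counts were 22 and 2. Of 21 pairs of same-numbered arrays, 3 correlated above 0.1 (r from -0.29 to 0.37), and 7 of 15 arrays were closest to one with their own number, so the numbers were not taken as pairs.

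Signs of hypoxia differences reversed in 8 cases. Within slide 2 these were A_70_P029911 (-1.0), A_70_P064681 (-0.0681) and A_70_P024446 (-0.12) in ketamine, and A_70_P056847 (-0.28) and A_70_P022956 (-0.27) in vehicle fetuses; with normexp, A_70_P022956 (-0.00911) and A_70_P064681 (-0.0336) in vehicle fetuses; without the lactogen arrays, A_70_P056847 (-0.0569) in ketamine fetuses. The cause was not tested. For the named members that passed a ketamine comparison, that difference kept its sign throughout, and 53 of 299 recomputed values no longer passed. Named members that had not passed are not part of this count. Of the members, 98 were not well above background on at least 1 array, which limits their values.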
